A study of Mus musculus with 24 samples.

Results

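The non-productive alpha rearrangements were the T cell receptor alpha (TCRα) sequences that carried the stop mark of the deposited tables and had at least 2 counts, in any of 24 CT26 tumors. They numbered 32462 of the 88151 alpha records with at least 2 counts, or 36.8%. By the length of the CDR3, the stretch across the V-J junction that contacts the antigen, 10717 of them (33.0%) were out of frame, meaning that the number of bases was not a multiple of 3, and 21745 were in frame. The mark did not stand for a stop codon alone. Of the in-frame members, 20217 had no stop codon but held 1 unread base (N), 125 held an N and a stop codon, and 1403 were fully read and held a stop codon. No unmarked record of at least 2 counts held an N, a stop codon in frame or an out-of-frame length. Joining records with equal V segment, J segment and CDR3 bases within a tumor left 32111 non-productive and 54294 productive sequences, which are the units below.

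The tumors came from female BALB/c mice of 7 to 9 weeks, inoculated in both flanks with CT26.CL25, a mouse colon carcinoma line. RNA was taken from whole tumors, so that fewer T cells and less receptor RNA per cell cannot be told apart. There were 12 mice with 2 tumors each, in 4 groups of 3 mice. In time-matched mice (6, 12 and 14) both tumors were harvested on day 13 without treatment. In time-separated mice (4, 17 and 19) the early tumor was excised on day 9 and the late tumor was collected 11 days later, on day 20, also without treatment. The low dose (mice 3, 11 and 20) and high dose (mice 7, 10 and 16) groups followed the same schedule and received decitabine (DAC), an inhibitor of DNA methylation, at 0.5 or 2 mg/kg intraperitoneally on 5 consecutive days, starting 3 days after surgery and ending 4 days before harvest. The tumors are labelled 1 and 2, and which of them was early or late is not given, so the sign of a difference between tumors carries no time. Alpha libraries held 33344 to 924619 counts, with a median of 192596, and the smallest was tumor 2 of mouse 7.

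A TCRα gene is assembled in the thymus by joining a V segment to a J segment, with bases trimmed and added at the joint. Joints that break the reading frame or bring in a stop codon encode no receptor chain, and transcripts with an early stop are degraded by nonsense-mediated decay. The alpha locus can rearrange on both chromosomes and can rearrange again on the same chromosome, so a T cell with a working alpha chain may also carry a failed joint. Such a joint is copied with the cell as the clone divides, although no receptor is made from it. Each non-productive sequence of this kind can therefore serve as a second label of a clone.

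The largest non-productive sequence of each mouse was out of frame in 12 of 12 mice. Those of 6 mice, which differ in segment and size, are printed to show what an out-of-frame alpha joint looks like, from the first to the last base of the CDR3, with the first stop codon met when reading from base 1 in capitals.
Mouse 6, TRAV8-1/TRAJ48: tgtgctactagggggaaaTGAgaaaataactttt
Mouse 16, TRAV3-3/TRAJ42: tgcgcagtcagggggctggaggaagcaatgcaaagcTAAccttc
Mouse 10, TRAV7-4/TRAJ7: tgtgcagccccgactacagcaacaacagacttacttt
Mouse 3, TRAV1/TRAJ32: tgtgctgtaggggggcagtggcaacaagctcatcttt
Mouse 14, TRAV3-3/TRAJ37: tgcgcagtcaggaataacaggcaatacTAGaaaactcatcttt
Mouse 19, TRAV3-3/TRAJ15: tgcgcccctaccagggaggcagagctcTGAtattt
Of the 12, 7 met a stop codon within the CDR3 and 5 did not, 4 used TRAV3-3 and 2 used TRAJ7. Their mean share over the tumors of a mouse ran from 0.464% to 11.1% of alpha counts, with a median of 1.59%. Frame was read here from the CDR3 length alone. In mouse 11 the largest, TRAV7-2/TRAJ7, left remainder 1 after division by 3 when counted to the J end, with no stop codon up to it. The frame of TRAJ7 sequences at the J end is described below, and whether they encode a chain was not tested.

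A further set of sequences shows the J end, since the largest departures in usage described below were those of TRAJ7 and TRAJ23. These are the most frequent last 21 bases of the CDR3 joined to the most frequent stretch between the CDR3 and the constant region, with the last 3 bases of the CDR3, as the tables set it, in capitals.
TRAJ7: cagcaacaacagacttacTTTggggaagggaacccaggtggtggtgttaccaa
TRAJ23: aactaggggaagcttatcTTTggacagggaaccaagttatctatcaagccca
TRAJ44: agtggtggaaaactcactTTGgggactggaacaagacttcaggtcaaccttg
TRAJ9: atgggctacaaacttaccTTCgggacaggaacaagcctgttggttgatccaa
The last, TRAJ9, is shown as a segment with no unusual frame.

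Out-of-frame sequences held most of the non-productive counts, while in-frame sequences with an N held most of the non-productive sequences. The 8091 fully read out-of-frame sequences held 474955 of 709329 non-productive counts (67.0%, or 8.67% of all alpha counts). The 20173 in-frame sequences with an N made up 62.8% of non-productive sequences and 28.1% of non-productive counts. Fully read in-frame sequences with a stop codon were rare, with 1386 sequences and 2.67% of non-productive counts, and out-of-frame sequences with an N held 2.25%.

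The sequences with an N were near copies of larger sequences. Of the in-frame ones, 19811 of 20173 (98.2%) equaled a productive sequence of the same tumor but for the unread base, at a median of 0.498% of its counts. Of the out-of-frame ones, 2435 of 2461 (98.9%) equaled a larger fully read out-of-frame sequence but for that base. A wider measure called a sequence close when a productive sequence of the same tumor, V and J lay within 2 edits and had at least 10 times its counts. By this measure 66.0% ± 3.82 of non-productive sequences were close (SD, n = 12 mice). The means over the same mice were 96.8% ± 1.15 for in-frame sequences with an N, 82.0% ± 7.64 for fully read in-frame stops, and 4.92% ± 2.54 for fully read out-of-frame sequences. Without sequences holding an N the value was 16.5%.

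The 5 non-productive sequences found in most mice were all of the N kind. The leading one, in 9 mice with 32 counts in all, is printed above the productive sequence it follows, which was found in 12 mice with 6853 counts. The capital marks the unread base.
TRAV7-2/TRAJ40, with the mark: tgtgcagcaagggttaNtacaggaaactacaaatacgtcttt
TRAV7-2/TRAJ40, productive: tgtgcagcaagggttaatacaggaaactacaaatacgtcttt
The other 4 were 2 more variants of this sequence and 2 of a TRAV3-3/TRAJ13 sequence, each in 8 mice. Fully read out-of-frame sequences were rarely shared: 36 of 6854 (0.525%) were found in at least 2 mice, against 2169 of 42161 productive sequences (5.14%). For sequences with none larger close by, the shares were 0.726% of 4130 and 6.05% of 19873. No adjustment was made for the larger number of productive sequences, and its part in the gap was not tested. The most widely found out-of-frame sequences were in 4 mice each. One was the TRAV8-1/TRAJ48 sequence printed for mouse 6, whose counts elsewhere were 12 and 2 in tumors 1 and 2 of mouse 4, and 2 each in tumor 1 of mice 19 and 20. In mouse 6 it had 37015 and 22517 counts, and 2 is the lowest count kept. The other joined TRAV9-1 to TRAJ7 and had 106 counts in all.

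The non-productive share of alpha counts differed widely across tumors, and the tumors of a mouse lay 0.321 (mouse 12) to 7.51 points (mouse 7) apart. The lowest tumor was at 7.93% (95% Clopper-Pearson interval 7.74 to 8.12), the median at 11.5% and the highest at 27.0% (26.8 to 27.1). These intervals cover counting error alone. In time-matched mice the shares in tumors 1 and 2 were 24.4% and 23.2% for mouse 6, 8.75% and 8.43% for mouse 12, and 9.92% and 12.4% for mouse 14. Mouse 6 thus stood far above the other mice of its group in both tumors. In untreated time-separated mice they were 12.3% and 10.5% (mouse 4), 11.9% and 13.0% (mouse 17), and 11.3% and 10.8% (mouse 19), a narrow band. In low dose mice they were 11.7% and 10.5% (mouse 3), 10.3% and 11.6% (mouse 11), and 9.36% and 7.93% (mouse 20). In high dose mice they were 12.6% and 20.2% (mouse 7), 10.0% and 11.3% (mouse 10), and 27.0% and 23.4% (mouse 16). High dose mice therefore spanned most of the range seen in the series.

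**Figure D1:**
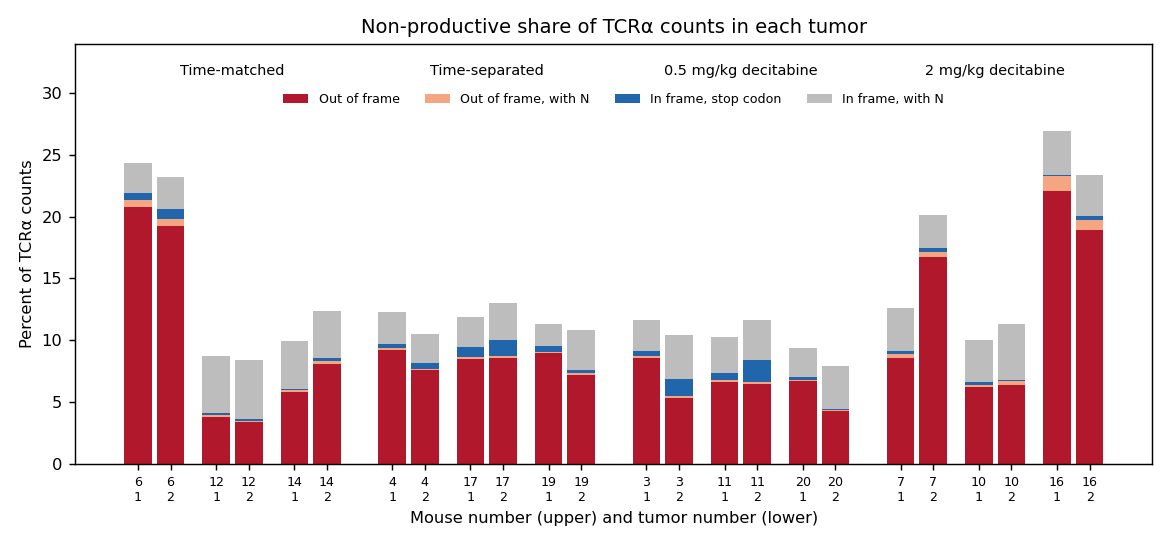
Share of alpha counts (%, vertical axis) in each class of non-productive sequence, stacked, for the 24 tumors ordered by mouse and group. Mice 6 and 16 stand highest in both tumors, at 23.2% to 27.0%, and tumor 2 of mouse 7 reaches 20.2%, in each case through the fully read out-of-frame class.

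Group means did not separate. They were 14.5% ± 8.14 in time-matched, 11.6% ± 0.707 in time-separated, 10.2% ± 1.36 in low dose and 17.4% ± 7.31 in high dose mice (SD, n = 3 mice each). Dosing began after the early tumor was excised, so the mean of each decitabine mouse joins an untreated and a treated tumor. Time-matched minus untreated time-separated mice was 2.87 percentage points (exact permutation test, two-sided, p = 0.9, smallest possible 0.1), and time-matched minus all 9 time-separated mice was 1.42 points (exact permutation p = 0.85). The difference turned negative without mouse 6, at -1.77 and -3.22 points. Among the 3 time-separated groups the highest and lowest means were 7.20 points apart (exact permutation p = 0.182), 10.6 points apart without mouse 10 (exact permutation p = 0.00357), and 3.32 points apart without mouse 16 (exact permutation p = 0.296). Counted as the share of distinct sequences, near copies and sequences with an N included, they were 8.76 points apart (exact permutation p = 0.0357), with 42.1% ± 5.57 in high dose, 33.4% ± 2.33 in low dose and 33.6% ± 1.24 in untreated mice (SD, n = 3). That share was not adjusted for the depth of the libraries, which averaged 210498 counts in high dose and 116041 and 130298 in low dose and untreated mice, and the part of depth in it was not tested. Without sequences with an N and near copies, an alternative added after the data were seen, the same means were 2.15 points apart (exact permutation p = 0.075), with 17.5% ± 0.713 in high dose, 15.4% ± 1.06 in low dose and 16.7% ± 1.07 in untreated mice (SD, n = 3).

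Single large sequences set much of the spread. In mouse 6 the TRAV8-1/TRAJ48 sequence held 12.4% and 9.81% of alpha counts, which was 51.0% and 42.2% of all non-productive counts, and was the largest non-productive or productive sequence in both tumors. Without it the shares of mouse 6 were 13.6% and 14.9%. In mouse 16 the TRAV3-3/TRAJ42 sequence held 7.82% and 6.31%, a TRAV7D-5/TRAJ4 sequence 6.19% and 3.79%, and a TRAV9-1/TRAJ56 sequence 2.96% and 3.86%. These 3 were out of frame, and removing only the largest left 20.8% and 18.2%. When each mouse's largest non-productive sequence was left out, time-matched minus untreated time-separated mice was -0.41 points (exact permutation p = 0.9).

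The tumors of a mouse differed by 1.97 points ± 1.94 on average (absolute difference, SD, n = 12 mice), while the SD between mice was 5.53 points. The absolute difference was 1.30 ± 1.08 in the 3 time-matched and 2.20 ± 2.16 in the 9 time-separated mice, 0.893 points apart (exact permutation p = 0.555), or 0.228 points without mouse 7. The signed difference, tumor 2 minus tumor 1, averaged 0.325 points (exact sign-flip permutation p = 0.744). It was -0.33 without mouse 7, -0.32 for out-of-frame sequences alone, and 0.643 for in-frame sequences alone (exact sign-flip permutation p = 0.0171).

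Counting each rearrangement alike gave a much steadier figure. After removal of sequences with an N and of those close to any larger sequence of the same tumor, V and J, 16.5% ± 1.45 of the distinct sequences of a mouse were non-productive (SD, n = 12), with a range of 14.7% to 19.9%. Out-of-frame sequences made up 16.0% ± 1.53 and in-frame stops 0.534% ± 0.134. This collapsed set held 4164 out-of-frame, 136 in-frame stop and 21654 productive sequences over the 12 mice.

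Non-productive sequences took a larger part of the alpha than of the beta libraries of the same tumors, and the gap lay in the out-of-frame class. By the same rule, 13.4% ± 5.53 of alpha and 6.48% ± 0.750 of beta counts were non-productive (SD, n = 12), with alpha higher in 12 of 12 mice by 6.97 points ± 5.39 (exact sign-flip permutation p = 0.000488, the smallest that 12 mice can give). Fully read out-of-frame sequences held 9.48% of alpha and 2.67% of beta counts, higher in alpha in 12 of 12 mice at the same p. In-frame sequences with an N held 3.20% and 3.37% (exact sign-flip permutation p = 0.153), and fully read in-frame stops 0.476% and 0.353% (exact sign-flip permutation p = 0.371).

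Non-productive sequences were smaller than productive ones in mean counts, although the fully read out-of-frame class was not small in the median. Mean counts per sequence, as a log2 ratio of non-productive to productive in each tumor averaged over a mouse, were -2.0 ± 0.37 (SD, n = 12), lower in 12 of 12 mice (exact sign-flip permutation p = 0.000488). Without sequences with an N the log2 ratio was -0.78 (exact sign-flip permutation p = 0.00146), and without close sequences it was -0.97. For fully read out-of-frame sequences the log2 ratio of means was -0.63 ± 0.53, lower in 10 of 12 mice (exact sign-flip permutation p = 0.00293). Their median was instead higher than the productive median, with a log2 ratio of 0.43 ± 0.35 that exceeded 0 in 10 mice (sign-flip permutation over mice, exact, p = 0.00342). Out-of-frame sequences had a median of 8 counts and productive ones 6, in which the many small near copies of productive sequences were still counted.

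Out-of-frame CDR3s were as long as productive ones in the middle of the distribution and more variable around it. In the collapsed set their median was 41 bases against 42, with an SD of 5.5 against 4.38 bases within a mouse, wider in 12 of 12 mice by 1.13 ± 1.12 bases. The remainder after division by 3 was 1 in 51.7% and 2 in 48.3%. A stop codon read from base 1 was present in 43.8% of them. Of out-of-frame sequences 14.8%, and of productive ones 15.3%, occurred in tumor 1 as well as tumor 2 of the same mouse.

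Among J segments with at least 50 sequences in the collapsed set, TRAJ7 and TRAJ23 appeared most rarely in a productive sequence. There, 248 of 273 TRAJ7 sequences (90.8%, and 81.8% to 100% in single mice) and 208 of 224 TRAJ23 sequences (92.9%, and 83.3% to 100%) were non-productive. The median of these J segments was 14.9%, and the next highest, TRAJ2, was at 26.7%. TRAJ25, with 4 sequences in that set, had 3 non-productive ones. At the other end, TRAJ44 had 3 non-productive sequences among 295 (1.02%).

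**Figure D2:**
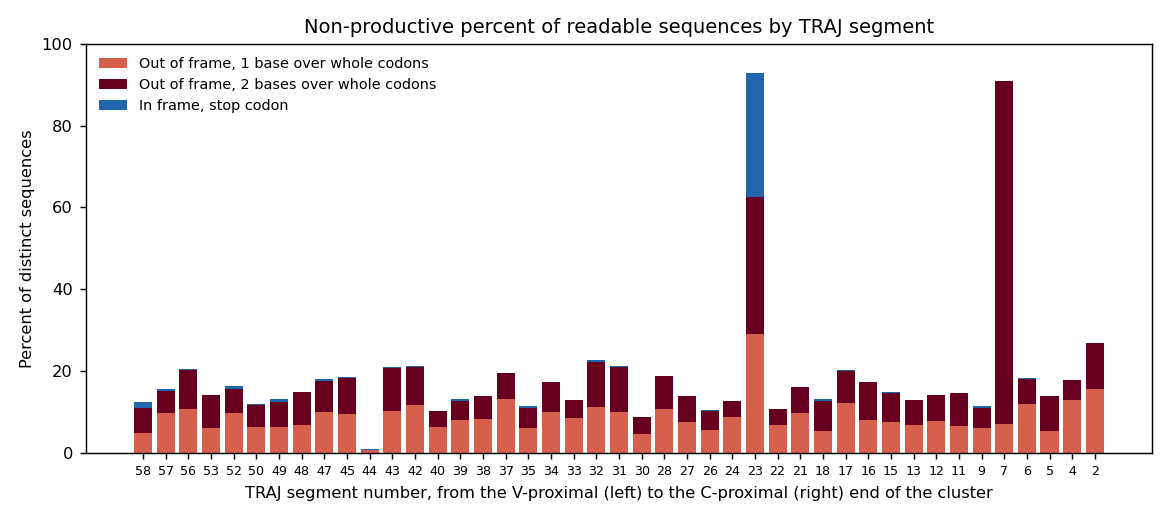
Percent of fully read, collapsed distinct sequences that were non-productive (vertical axis) for each TRAJ segment with at least 50 such sequences, ordered by TRAJ number and divided into remainder 1, remainder 2 and in-frame stop. TRAJ7 reaches 90.8%, nearly all of it remainder 2, and TRAJ23 92.9% with a large part in frame with a stop, whereas TRAJ44 is at 1.02%.

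The segments differed in kind. Most TRAJ23 sequences shared an end with a stop codon: 196 of 224 ended in the 21 bases aacTAGgggaagcttatcttt, with the stop codon in capitals. All 196 were non-productive, 131 of them out of frame and 65 in frame, and none of the 16 productive TRAJ23 sequences had that end. This follows from the mark, since a CDR3 with that end holds a stop codon when in frame and is marked for its length otherwise. The germline TRAJ23 segment was not compared. A productive sequence from mouse 11, in which other bases stood in place of the stop codon, is printed for comparison.
TRAV6-5/TRAJ23, productive: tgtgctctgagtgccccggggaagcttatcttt
TRAJ23 supplied 68 of the 136 collapsed in-frame stops (50%) and 65.1% of their counts, with TAG in all 68. The 68 in-frame stops of other J segments were spread over TAG (29), TGA (26) and TAA (13).

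TRAJ7 carried no stop codon in its end, and its sequences were out of frame in 248 cases and in frame with a stop in 0. Of the 248, 229 had remainder 2 and 19 had remainder 1. Its CDR3 as set in the tables was followed by 32 bases up to the constant region, while 41 of 42 other J segments were most often followed by 31 (TRAJ45 by 24). The frame at the end of the J segment, counted from the first base of the CDR3, was therefore compared. This comparison was chosen after the values were seen, and its shares follow from the number of bases after the CDR3: with 31 of them an in-frame CDR3 has remainder 1 at the J end and an out-of-frame one does not. The remainder at the J end was 1 in 87.0% of productive sequences of other J segments. It was also 1 in 206 of the 248 out-of-frame TRAJ7 sequences (83.1%, and 62.1% to 94.1% in single mice), and 204 of those 206 had no stop codon up to the J end. It was 1 in 0 of the 25 productive TRAJ7 sequences, and in 221 of 3861 out-of-frame sequences of other J segments (5.72%), with 12.4% for TRAJ18 the highest aside from TRAJ45, whose CDR3s end at varied distances and where it was 72 of 151 (47.7%). The 204 sequences held 18224 of the 31223 counts of out-of-frame TRAJ7 sequences. Whether the TRAJ7 sequences with the mark encode a chain was not tested.

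TRAJ44 varied in where its CDR3 was taken to end. Of its sequences, 211 were followed by 31 bases, 52 by 32 and 15 by 30, and 209, 52 and 14 of these were productive. The remainder at the J end was 1 in 218 of 291 productive TRAJ44 sequences (74.9%) and 2 in 56. The part of these varied ends in the low non-productive percent and usage of TRAJ44 was not tested. Productive sequences of all J segments were followed by 31 bases in 85.5% and by 32 in 10.1% of cases, and out-of-frame ones in 82.0% and 12.9%.

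V and J usage was first compared over all non-productive and productive sequences. Near copies of a productive sequence share its V and J by definition and were included here. Usage is the percent of a mouse's distinct sequences, and 102 segments with a mean usage of at least 0.1% were tested together. Of these, 7 (6.86%) differed at an adjusted p below 0.05 (exact sign-flip permutation tests over 12 mice, Benjamini-Hochberg), 3 of them higher in non-productive sequences (2.94%). TRAJ7 held 2.48% of non-productive and 0.0717% of productive sequences, TRAJ23 1.71% and 0.0851%, and both were higher in 12 of 12 mice (adjusted permutation p = 0.00996). TRAV3-1 was higher by 1.34 points ± 1.09 in 11 of 12 mice (adjusted permutation p = 0.0166). The segments that were lower were TRAV16D/DV11 (by -1.05 points ± 0.602), TRAV16 (-0.92 ± 0.451), TRAV14-3 (-0.44 ± 0.316) and TRAJ38 (-0.27 ± 0.230), each in at least 11 of 12 mice. Without mouse 16 the number called was 12.

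With the near copies set aside, usage of out-of-frame sequences departed from productive usage widely. In the collapsed set 43 of 109 segments (39.4%) differed, 17 of them higher in out-of-frame sequences (15.6%), and 6 of the 7 segments above were among them in the same direction. TRAJ7 held 5.79% ± 1.49 of out-of-frame and 0.111% ± 0.0805 of productive sequences, and TRAJ23 3.38% ± 0.739 and 0.0753% ± 0.0640 (SD, n = 12). Other J segments that were higher were TRAJ32 (1.29 points), TRAJ56 (1.01), TRAJ42 (0.92) and TRAJ43 (0.72). Lower were 12, led by TRAJ40 (-1.96 points ± 1.18), TRAJ26 (-1.71 ± 1.04), TRAJ30 (-1.54 ± 1.09), TRAJ22 (-1.42 ± 0.596) and TRAJ49 (-1.36 ± 0.883). TRAJ44 held 0.0450% of out-of-frame against 1.39% of productive sequences and was lower in 12 of 12 mice. J usage sums to 100% within each kind, so that the surplus of TRAJ7 and TRAJ23 lowers the rest by construction.

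Among V segments 11 were higher and 14 lower in out-of-frame sequences. TRAV3-3 rose from 4.66% ± 0.873 of productive to 6.48% ± 1.22 of out-of-frame sequences, higher in 12 of 12 mice. TRAV3-1 was higher by 1.51 points ± 1.08, TRAV1 by 1.14 ± 1.20, TRAV8-1 by 1.06 ± 0.844 and TRAV13-1 by 0.80 ± 0.828. Members of the TRAV15/DV6 group, which also serve the delta chain, were higher in 3 cases, TRAV15-2/DV6-2 by 0.70 points, TRAV15-1/DV6-1 by 0.49 and TRAV15D-1/DV6D-1 by 0.39. Lower in 12 of 12 mice were TRAV16 (-2.24 points ± 0.386), TRAV7-2 (-1.99 ± 1.10), TRAV16D/DV11 (-1.72 ± 0.570), TRAV5-4 (-1.55 ± 0.906) and TRAV14-3 (-1.23 ± 0.447). The V segments called higher and lower did not follow family lines alone, since TRAV8-1 was higher and TRAV8-2 lower (-0.60 ± 0.563). Segments with near-identical copies, such as TRAV16 and TRAV16D/DV11, can exchange reads in the authors' assignment.

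**Figure D3:**
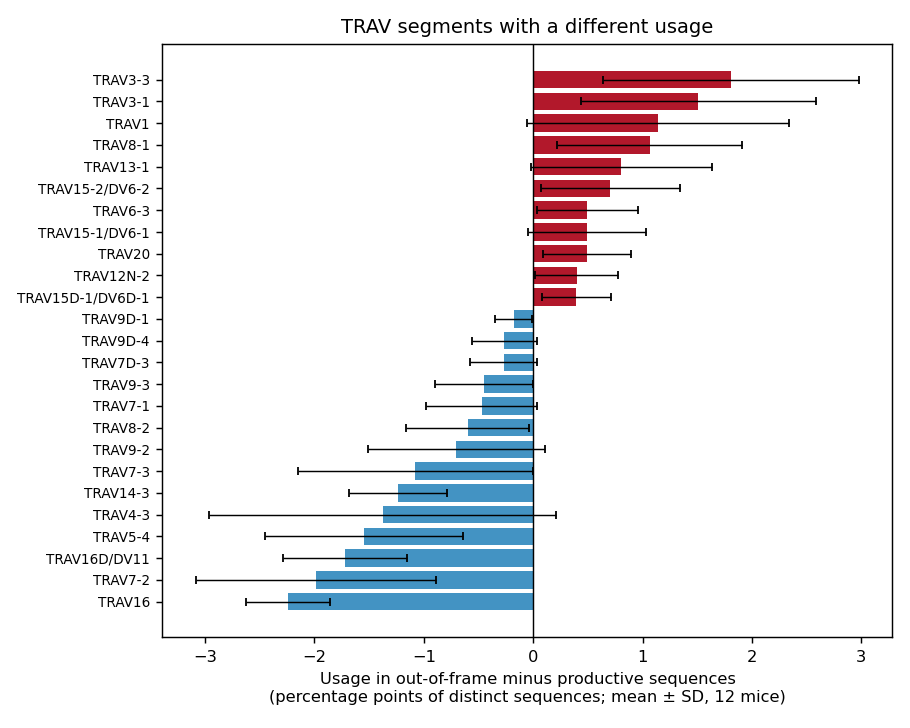
Difference in usage (percentage points, out-of-frame minus productive, collapsed distinct sequences) for the 25 V segments called, as bars of the mean with error bars of the SD over 12 mice. TRAV3-3 lies highest at 1.81 points and TRAV16 lowest at -2.24 points.

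Among V segments with at least 50 distinct sequences, the highest percent non-productive was found for TRAV15-2/DV6-2 (60%), TRAV7D-5 (56.8%), TRAV12N-2 (53.4%), TRAV8-1 (49.6%) and TRAV6-3 (48.6%), against 36.6% for all sequences. Among fully read, collapsed sequences TRAV15-2/DV6-2 was at 41.7% (43 of 103), TRAV12N-2 at 38.0% and TRAV6-3 at 32.0%, while TRAV7D-5 was at 18.2% and TRAV8-1 at 22.2%. Among V segments with at least 50 fully read sequences the lowest were TRAV16D/DV11 at 4.37% (22 of 504) and TRAV16 at 6.21% (48 of 773). V segments that RefSeq (mouse assembly of strain C57BL/6J) lists as pseudogenes had 41 of 62 fully read sequences out of frame (66.1%), with 22 of 35 for TRAV20 and 19 of 25 for TRAV4D-2. V segments listed as genes were non-productive in 16.5%.

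Position along the J cluster was read from the TRAJ number, which falls toward the constant region. The median TRAJ number of all non-productive sequences was 33.6 against 33.5 for productive ones, 0.0833 ± 0.793 apart over 12 mice (SD, sign-flip permutation, exact, p = 1). Collapsed out-of-frame sequences had a median of 33.1 against 35.2, lower by -2.04 ± 1.48 in 9 mice and equal in 3 (exact sign-flip permutation p = 0.00391). Without TRAJ7 the difference was -0.75 ± 1.36 (exact sign-flip permutation p = 0.125), and without TRAJ7 and TRAJ23 it was -0.13 ± 1.96 (exact sign-flip permutation p = 0.891). The difference no longer passed the threshold without them.

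The design left little room to call a segment between the schedules, since the smallest exact permutation p for 3 against 9 mice is 0.00455 and a single segment at that value could not pass the adjustment over 102. Between time-matched and all time-separated mice 0 of 102 segments were called (0%) by the exact permutation test with Benjamini-Hochberg adjustment, and 3 (2.94%), TRAJ28, TRAJ43 and TRAV12-2, had an unadjusted p below 0.05.

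Large non-productive sequences were compared with productive sequences of the same mouse, since a failed and a working joint carried by the same cells would change together between tumors. Large meant at least 0.5% of alpha counts in at least 1 tumor, at least 10 counts in both tumors, and not close to a larger productive sequence. There were 41, of which 37 were out of frame and 4 in frame with a stop codon, 3 of these with TRAJ23. TRAJ7 was used by 5. They occurred in 12 of 12 mice and held 242138 counts. Productive sequences of that size numbered 310, with 15 to 33 per mouse.

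Of the 41, 39 (95.1%) had a large productive sequence whose log2 ratio of shares, tumor 2 over tumor 1, lay within 0.25 of their own. This count needs its background, since 223 of 310 large productive sequences (71.9%) had another large productive sequence equally near. With a window of 0.1 the counts were 22 of 41 (53.7%) and 149 of 310 (48.1%), and with a size limit of 0.2% they were 95 of 102 (93.1%) and 557 of 611 (91.2%), so the distance from the background depended on both settings. For 12 of the 39 there was exactly 1 candidate, and for 27 there were several, up to 7. With 2 tumors each sequence gives 1 ratio, which cannot single out a clone, so the pairs below share a ratio and no more. Between tumors 22 of the 41 (53.7%) changed at least 2-fold in share, 1 of them in a time-matched mouse, as did 199 of the 310 productive ones (64.2%). For those 22, exactly 1 candidate was found in 9 and none in 2. The 2 without a candidate were TRAV8-1/TRAJ56 in mouse 4 (0.253% and 0.564%) and TRAV3-3/TRAJ7 in mouse 3 (1.13% and 0.213%).

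In mouse 14, whose tumors were harvested on the same day, a pair with 1 candidate was found. The out-of-frame TRAV3-3/TRAJ37 sequence held 0.715% of tumor 1 and 2.60% of tumor 2, a 3.64-fold change. The single productive candidate, TRAV7-4/TRAJ39, held 2.61% and 9.05%, a 3.47-fold change. The pair is printed with the stop codon in capitals.
Mouse 14, out of frame: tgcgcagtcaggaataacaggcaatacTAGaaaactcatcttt
Mouse 14, productive: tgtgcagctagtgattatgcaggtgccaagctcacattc
In mouse 11 an in-frame TRAV6-5/TRAJ23 sequence with the TRAJ23 stop codon rose from 0.376% to 1.57% (4.17-fold), and its single candidate, TRAV6-6/TRAJ15, went from 1.37% to 6.74% (4.93-fold).
Mouse 11, in-frame stop: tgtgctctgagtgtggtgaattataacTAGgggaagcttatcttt
Mouse 11, productive: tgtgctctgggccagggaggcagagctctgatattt

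Mouse 7 held 7 of the 41 large non-productive sequences, the most of any mouse, and all 7 changed at least 2-fold, 6 of them upward. TRAV1/TRAJ18 went from 0.0602% to 2.31% (38.4-fold), beside TRAV6-6/TRAJ45 from 0.0248% to 0.885% (35.7-fold), its single candidate. TRAV9D-4/TRAJ7 went from 0.0838% to 2.53% (30.1-fold), with TRAV9-1/TRAJ40 nearest of 2 candidates at 28.2-fold. TRAV3-3/TRAJ50 went from 0.687% to 2.49%, TRAV1/TRAJ30 from 0.515% to 1.63%, and TRAV3-1/TRAJ57 from 0.487% to 1.49%, each with 3 or 4 candidates. TRAV4-3/TRAJ48 went from 0.249% to 1.34%, and TRAV15-2/DV6-2 with TRAJ21 fell from 1.14% to 0.303%, each with 2 candidates. Tumor 2 of this mouse was the smallest library of the series, and 771 counts stood behind the 2.31% of TRAV1/TRAJ18.

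In mouse 10 the out-of-frame TRAV7-4/TRAJ7 sequence rose from 0.900% to 2.81% (3.12-fold), with TRAV16/TRAJ17 at 0.751% and 2.32% (3.09-fold) nearest among 4 candidates. The largest non-productive sequences of mice 6 and 16 instead fell by 1.26-fold and 1.24-fold, with log2 ratios of -0.34 and -0.31. Among the 41, 5 had remainder 1 at the J end with no stop codon up to it, 3 of them with TRAJ7. These 3 were TRAV9D-4/TRAJ7 in mouse 7, TRAV3-3/TRAJ7 in mouse 3 and TRAV7-2/TRAJ7 in mouse 11. The other 2 were TRAV16D/DV11 with TRAJ12 in mouse 12 and TRAV6-5 with TRAJ45 in mouse 19, each followed by 32 bases. Whether any of the 5 encodes a chain was not tested.

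**Figure D4:**
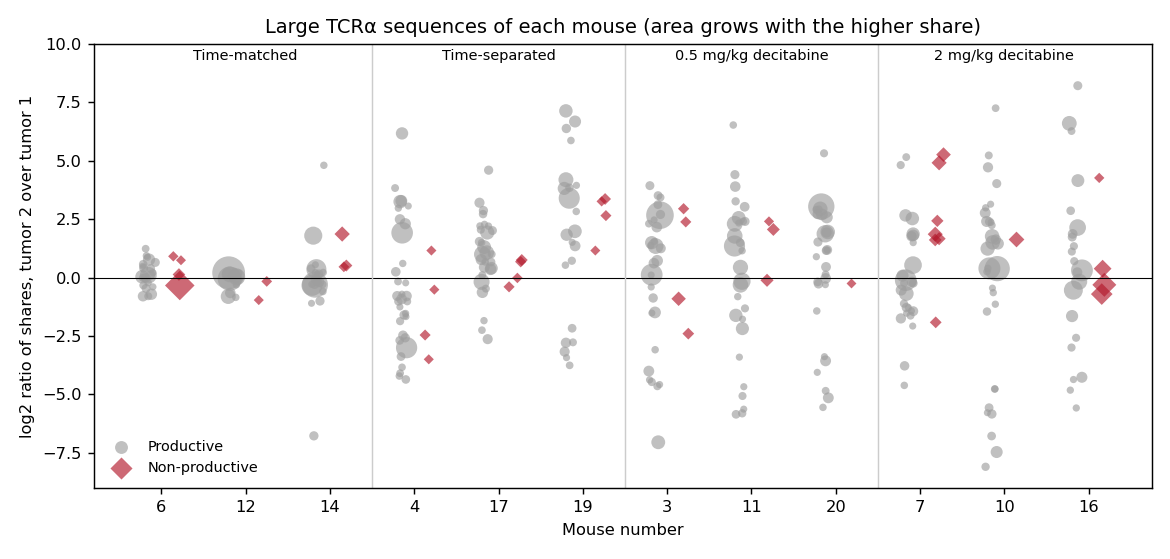
Log2 ratio of the share in tumor 2 over tumor 1 (vertical axis) for large productive (grey circles) and large non-productive (red diamonds) sequences of each mouse, with marker area growing with the higher of the shares. In mouse 14 the non-productive sequence at 1.86 lies beside a single productive one at 1.79, and in mouse 7 non-productive sequences reach 5.26.

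The overlap of non-productive sequences between the tumors of a mouse differed from that of productive ones in both directions. The Morisita-Horn index, which is 1 for equal frequencies and 0 for no shared sequence, was computed within each kind on V, J and CDR3 bases. For non-productive sequences it was 0.981, 0.964 and 0.744 in time-matched mice 6, 12 and 14. In untreated time-separated mice 4, 17 and 19 it was 0.541, 0.882 and 0.202. In low dose mice 3, 11 and 20 it was 0.650, 0.764 and 0.483, and in high dose mice 7, 10 and 16 it was 0.448, 0.603 and 0.965. The groups overlapped, since mouse 14 lay below mice 11, 16 and 17. For productive sequences it was 0.967, 0.990 and 0.942 in mice 6, 12 and 14, and 0.380, 0.797 and 0.150 in mice 4, 17 and 19. In mice 3, 11 and 20 it was 0.573, 0.705 and 0.320, and in mice 7, 10 and 16 it was 0.878, 0.880 and 0.826. Non-productive sequences thus had the lower index in mice 12, 14, 7 and 10 and the higher index in the other 8, with the differences running from -0.43 in mouse 7 to 0.163 in mouse 20. The in-frame near copies of productive sequences with an N were included in this index. For out-of-frame sequences alone it averaged 0.912 ± 0.112 in time-matched (SD, n = 3) and 0.629 ± 0.247 in time-separated mice (SD, n = 9). It was again higher than the productive index in 8 of 12 mice.

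Time-matched mice averaged 0.896 ± 0.132 (SD, n = 3) and the 9 time-separated mice 0.615 ± 0.234, 0.281 apart (exact permutation p = 0.0909), or 0.325 without mouse 16 (exact permutation p = 0.0424). Without each mouse's largest non-productive and largest productive sequence the means were 0.938 ± 0.00958 and 0.488 ± 0.254, 0.450 apart, and the groups did not overlap (exact permutation p = 0.00455, the smallest possible). In mouse 14 the index rose from 0.744 to 0.927 when the TRAV3-3/TRAJ37 sequence was left out. Against productive sequences of the same mouse the non-productive index differed by -0.02 ± 0.188 and was higher in 8 of 12 mice (exact sign-flip permutation p = 0.795). This difference itself did not separate the schedules (exact permutation p = 0.627). Between tumors of different mice the highest index over 264 pairs was 0.00557 for non-productive and 0.152 for productive sequences.

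**Figure D5:**
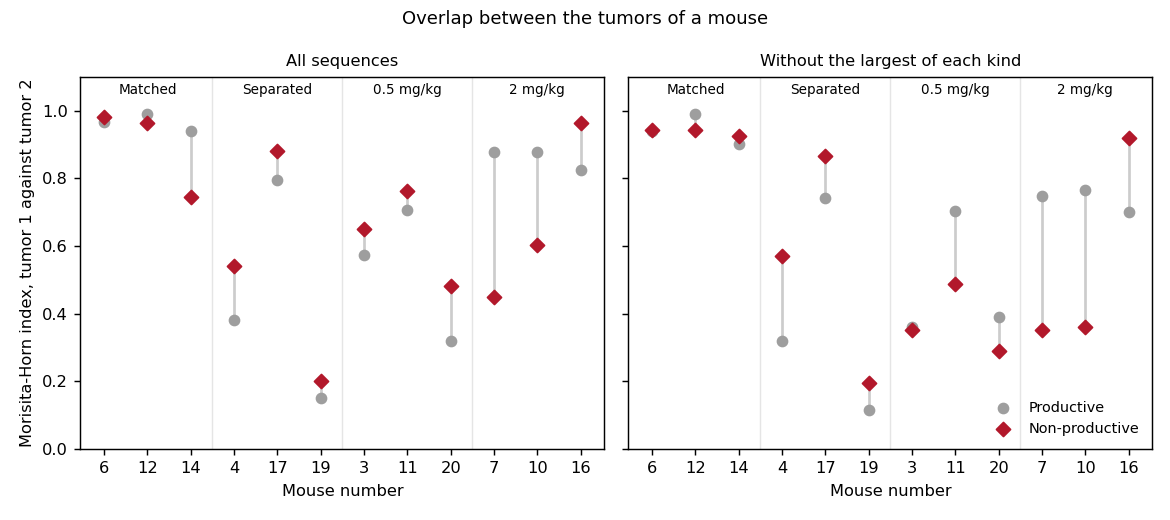
Morisita-Horn index between the tumors of each mouse (vertical axis) for non-productive (red diamonds) and productive sequences (grey circles), by mouse and group, with all sequences on the left and without the largest of each kind on the right. On the right the non-productive index of time-matched mice lies at 0.927 to 0.944, while the 9 time-separated mice spread from 0.195 to 0.921.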

How the data were processed

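Per the labels and the methods of the study, TCRα libraries were made from total RNA of whole tumors with a SMART-Seq mouse TCR kit that adds unique molecular identifiers (UMIs), and the authors ran a UMI-based analysis and called clonotypes with the Cogent NGS Immune Profiler. The authors deposited 1 count per receptor sequence in each tumor, in 24 alpha and 24 beta tables, without normalization. The count column names the unit reads, and whether these counts are reads or merged UMIs is not given in the sources used here. The aligner, genome build and segment reference are not given in the sources used here.

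Members were alpha records with the stop mark and at least 2 counts, and records with equal V, J and CDR3 bases were joined within a tumor. The members, lists and rules were chosen with earlier results of these data known. The collapsed set left out sequences with an N and those within 2 edits of a sequence of the same tumor, V and J with at least 10 times the counts. Large sequences had at least 0.5% of counts in 1 tumor and 10 counts in both. Named were each mouse's largest non-productive sequence, up to 8 large ones that changed at least 2-fold, the 5 found in most mice, the segments called with the largest differences, and the segments with the highest percent non-productive. The TRAJ7, TRAJ23 and TRAJ44 ends, TRAJ25, the large sequences of mice 7 and 16, and those without a candidate were named after their values were seen.

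Per the labels, tumors were paired by mouse. Exact sign-flip permutation tests (12 mice) served for contrasts within mice, and exact permutation tests on 1 value per mouse for contrasts between groups, all two-sided, in place of the parametric tests of the study. Segment p-values were adjusted by Benjamini-Hochberg over all V and J segments tested. Shares of single tumors carry 95% Clopper-Pearson intervals. Depth ran from 33344 to 924619 counts, and a true count of 0 allows a share of up to 0.00900% (3 counts) in the smallest library. Records of 1 count were left out, so a sequence absent here may have had 1 count, for which the limit is higher. Alternatives changed the minimum count (1 or 5), the weighting, the classes kept, the edit distance, the window, the size limit, thinning (20 draws from seed 20) and the set of mice. A further 5 were added after the data were seen. They were leaving out sequences with an N, leaving out TRAJ7, and leaving out sequences with an N and near copies together (the collapsed set). The others were out-of-frame sequences alone in the collapsed set, and the share of distinct sequences in the collapsed set. The scripts were tested on simulated data. Gene classes came from RefSeq. Python 3.11.15, numpy 2.4.6, pandas 2.3.3, scipy 1.17.1, matplotlib 3.10.9 and edlib 1.3.9.post1 were used.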

Additional observations from a re-analysis of the deposited data

Results flagged for a closer look

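The absolute difference in non-productive share between the tumors of high dose mouse 7 was 7.51 percentage points, far from the other 8 time-separated mice, of which the nearest was mouse 16 at 3.55 points. Its tumor 2, at 20.2%, was the smallest alpha library of the series with 33344 counts, and the part of depth in the difference was not tested. Without mouse 7, time-separated exceeded time-matched mice in absolute difference by 0.228 points (exact permutation p = 0.782), against 0.893 with it. Among 31 groups checked in this way 1 was found, and chance gives about 1 in 20 groups.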

How the results depend on the processing

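Of 253 alternative values, 213 kept their direction and their side of the threshold (a count, to within 1.5 times), whatever their size, 22 changed sign, 13 moved by more than that limit or, with no test, than the SD and 5 newly passed the threshold. Of the 213, 21 on segments between the schedules and 15 on 3 against 3 mice say nothing of stability, since the design left little or no room for a call. Time-matched minus untreated or all time-separated mice in non-productive share changed sign without mouse 6 (-1.77 and -3.22 points) and without each mouse's largest non-productive sequence (-0.41 and -0.93), never past the threshold. Over single mice left out they ran from -1.77 to 5.83 and from -3.22 to 4.38. The spread of the 3 time-separated group means was 8.76 points by distinct sequences and 10.6 without mouse 10 (3.32 to 10.6 over mice left out). Tumor 2 minus tumor 1 in share was -0.10 with no minimum count, -0.32 for out-of-frame sequences, -0.0377 without close sequences, -0.0487 without N, -0.0568 in the collapsed set, 0.643 (exact permutation p = 0.0171) for in-frame sequences, and -0.33 to 0.677 over mice left out. Counts per sequence stayed lower but by less, at a log2 ratio of -0.78 without N, -0.96 for out-of-frame sequences, -0.97 without close sequences and -0.98 in the collapsed set.

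The number of segments called was 12 weighted by counts, 21 with no minimum count, 22 with a minimum of 5, 18 for out-of-frame sequences, 19 without close sequences, 22 without N, and 37 and 43 in the collapsed set with all and with out-of-frame sequences (7 to 12 over mice left out, the highest without mouse 16). The difference in median TRAJ number was -0.67 both weighted by counts and for out-of-frame sequences, -1.50 with a minimum of 5, -1.54 without close sequences, -0.33 without N, -2.29 and -2.04 in the collapsed set, and -0.0909 to 0.182 over mice left out. The percent of close sequences was 53.2 with a minimum of 5 and 16.5 without N. Large sequences with a candidate numbered 22 of 41 with a window of 0.1 (background 48.1%) and 95 of 102 with a size limit of 0.2% (background 91.2%). The overlap difference between schedules was 0.450 without the largest sequences (exact permutation p = 0.00455) and 0.229 to 0.357 over mice left out, at p = 0.0424 without mouse 16, and non-productive minus productive overlap ran from -0.0313 to 0.0227 over mice left out. The causes were not tested. Libraries differed in depth, counts are not known to be molecules, and single tumors of 3 mice per group limit what the group tests can show.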
